A study of Bos taurus with 8 samples.

Results

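The genes examined here are the ligands, receptors, SMAD transducers and secreted antagonists of TGF-beta, BMP and nodal signalling in bovine blastocysts. They were chosen by gene symbol from the platform's probe annotation: the numbered BMP, GDF, TGFB and SMAD genes, the ACVR, BMPR and TGFBR receptor genes, and NODAL, TDGF1, FST, LEFTY2, NOG and GREM1. The choice gave 49 genes with 70 probes, out of 15229 annotated genes and 43794 expression probes on the array. Each gene is represented by its brightest probe, and the other probes of a gene are given where they bear on its value. The embryos were Holstein blastocysts made in vitro with oocytes from slaughter ovaries, and no group was grown in a cow. Lipid blastocysts received serum-extracted lipids in the culture medium from day 3, at the 8-16 cell stage, to day 7, and control blastocysts received no lipids. Both were collected 170 hours after fertilization and pooled, 10 embryos per pool, so that no value belongs to a single embryo. The 4 lipid pools and 4 control pools were hybridised as 4 pool pairs, each on 1 array of slide 87 and 1 array of slide 88 with the dyes Cy3 and Cy5 exchanged.

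TGF-beta family ligands are secreted dimers that bring type I and type II receptor kinases together on the cell surface. The type I receptor then phosphorylates a receptor-regulated SMAD: SMAD1, SMAD5 or SMAD9 for BMP signals, SMAD2 or SMAD3 for TGF-beta, activin and nodal signals. The phosphorylated SMADs join SMAD4 and enter the nucleus, while SMAD6 and SMAD7 hold the cascade back and proteins such as noggin and follistatin trap ligands outside the cell. In mammalian embryos nodal signalling is known for its part in the epiblast and BMP4 for its part in the dialogue between trophectoderm and epiblast.

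A channel of a probe counted as above background where its foreground intensity lay over a limit set 2 SD over the mean of 757 negative control spots, per array and dye. On 7 arrays the Cy3 limits ran from 217 to 294 units and the Cy5 limits from 182 to 273, and they were 958 and 461 on array 1 of slide 87, where 20.5% of probes passed against 55.2% to 73.8% elsewhere. A probe was kept for the comparison if either channel passed on at least 4 of the 8 arrays, which held for 28844 probes. Transcripts that define the blastocyst were present: in the control channel 9 of 10 trophectoderm markers, 5 of 6 inner cell mass markers and 5 of 6 primitive endoderm markers passed on at least 4 arrays. CDX2, a trophectoderm transcription factor, passed on 2. The array is a bulk measurement, so fewer cells of a type and less RNA per cell cannot be told apart in any value below.

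In control blastocysts, 26 of the 49 pathway genes were above background on at least 4 of 8 arrays, against 60.9% of all annotated genes. The control channel passed on all 8 arrays for 6 of them (23.3% of all genes), on 1 to 3 arrays for 9, and on none for 14 (18.3% of all genes). In the lipid channel 30 passed on at least 4 arrays, against 70.2% of all genes, so the lipid channel passed more often than the control channel over the whole array as well. All 26 genes of the control channel were among these 30, and the other 4 were BMPR1B, SMAD9, FST and GREM1. On every array but array 1 of slide 87, more probes passed in Cy3 than in Cy5. That array, where the fewest probes passed, held its control pool in Cy3. Control pools thus had fewer well-measured Cy3 arrays than lipid pools, and the part of this in the counts was not tested. The 6 probes with the highest control intensity belonged to SMAD1 (probe EMBV3_40789), ACVR1, SMAD2, BMP2 (EMBV3_30451), SMAD6 and ACVR1B (EMBV3_05445). Their median raw intensities in the control channel were 9097, 7341, 2085, 1825, 1432 and 1316 units. Brightness also depends on the probe, so these intensities do not order the genes by transcript number.

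Among the 22 ligands, 9 passed on at least 4 arrays in the control channel. BMP2, BMP7, BMP15, GDF1, GDF11 and NODAL each passed on 7, GDF10 on 6, and BMP4 and BMP6 on 5. TGFB1 and TGFB2 passed on no array in either channel, as did BMP5, GDF2, GDF7, GDF9 and GDF15. TGFB3, the remaining TGF-beta isoform, passed on 1 array in the control and 3 in the lipid channel. BMP15 and GDF9 are both ligands of the oocyte in cattle, and here BMP15 passed on 7 arrays in each channel and GDF9 on none. Of 8 oocyte marker genes, 3 passed on at least 4 control arrays (FIGLA, H1FOO and ZP3), and ZAR1 passed in neither channel. The summed intensity of the 8 markers was 1215 to 1260 units in control and 1219 to 1291 in lipid pools. Markers other than those 3 passed on 0 to 2 control arrays, so the sum is partly background. The part of oocyte RNA in the BMP15 signal was not tested.

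Of the 12 receptor genes, 9 passed on at least 4 control arrays. ACVR1, a type I receptor for BMPs, ACVR1B, a type I receptor for activin and nodal, and BMPR1A, a type I receptor for BMPs, passed on all 8. The type II receptors ACVR2A, BMPR2, TGFBR2 and ACVR2B passed on 7, 6, 5 and 4. TGFBR1, the type I receptor for TGF-beta, and ACVRL1, best known from blood vessels, passed on none in either channel. TGFBR3 (betaglycan), which presents TGF-beta to the other receptors, passed on 7. Intracellular signalling genes were seen for both branches: SMAD1, SMAD2 and the inhibitory SMAD6 passed on 8 control arrays, the common partner SMAD4 on 7, SMAD3 on 6 and SMAD9 on 3. SMAD5 passed on none in either channel, and SMAD7 on 0 in the control and 2 in the lipid channel. TDGF1 (current symbol CRIPTO), the co-receptor of nodal, passed on 4 control and 8 lipid arrays. The secreted antagonists were at the limit or below it: FST (follistatin), GREM1 (gremlin) and LEFTY2 each passed on 3 control arrays and NOG (noggin) on none. A probe that stays below the limit says nothing about a transcript present at a low level.

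**Figure D1:**
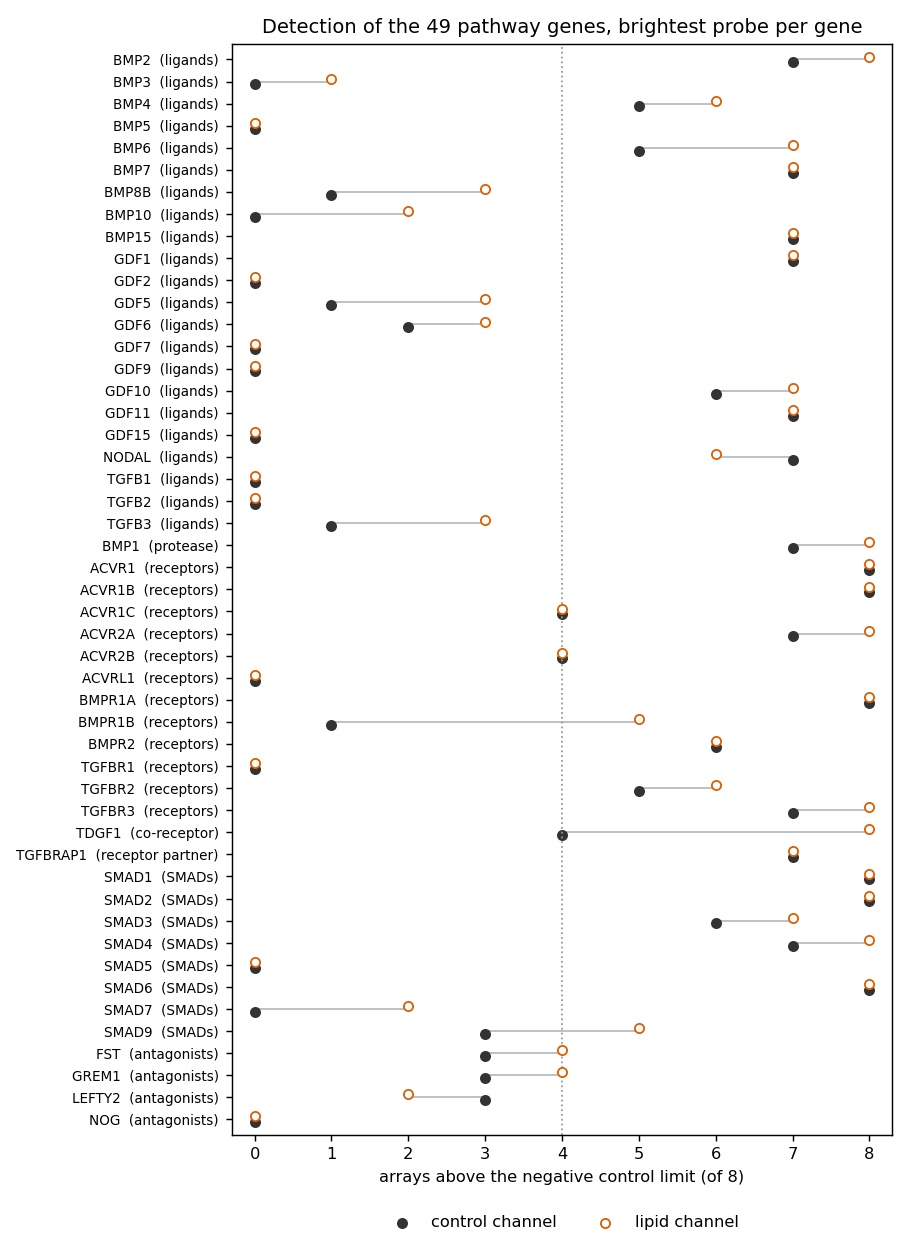
Number of arrays, out of 8, on which the brightest probe of each of the 49 pathway genes exceeded the negative control limit (x axis), in the control channel (filled) and the lipid channel (open), grouped by role; the dotted line marks 4 arrays. SMAD1, SMAD2, SMAD6, ACVR1, ACVR1B and BMPR1A reached 8 in both channels, while TGFB1, TGFB2, TGFBR1, SMAD5 and NOG stayed at 0 in both.

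The comparison of lipid with control asked which of these genes differed between the cultures. No pathway gene passed the test, and neither did any other probe. Of the 35 pathway genes kept, 22 had mean log2 ratios of lipid over control above 0 and 13 below 0, against 49.9% of the 11669 kept genes above 0. Their median was 0.02, where all kept genes had -0.00018, and their means ran from -0.32 (ACVR1B) to 0.87 (BMP2). The test was limma's, of the 4 pool pair values against 0, with Benjamini-Hochberg adjustment over all kept probes and a threshold of 0.05, and it called 0 pathway genes (0% of all kept genes). The lowest adjusted p was 0.996 in that fit, both for the pathway genes and for the whole table. At an unadjusted p under 0.05 in limma stood 1 of the 35, ACVR1B, against 5.38% of all kept genes (2.64% on the lower and 2.74% on the higher side). A mean of at least 1.5-fold in either direction was seen for 1 of the 35, BMP2, against 0.797% of all kept genes. The labels do not tell whether each pool had its own fertilization run, so the p-values cover the spread between pools, which may be technical.

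The spread between pool pairs was larger than most of these means. The SD over the 4 pool pairs had a median of 0.26 for the pathway genes and 0.23 for all kept genes, and it reached 1.18 for BMP2. ACVR1B was the single kept pathway gene with the same sign in all 4 pool pairs (1 of 35), against 11.1% of all kept genes (5.69% below 0 and 5.36% above 0). The 14 genes that were not kept, among them TGFB1, TGFB2, TGFBR1, SMAD5, SMAD7, NOG and GDF9, have no ratio here because too few arrays showed them above background.

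**Figure D2:**
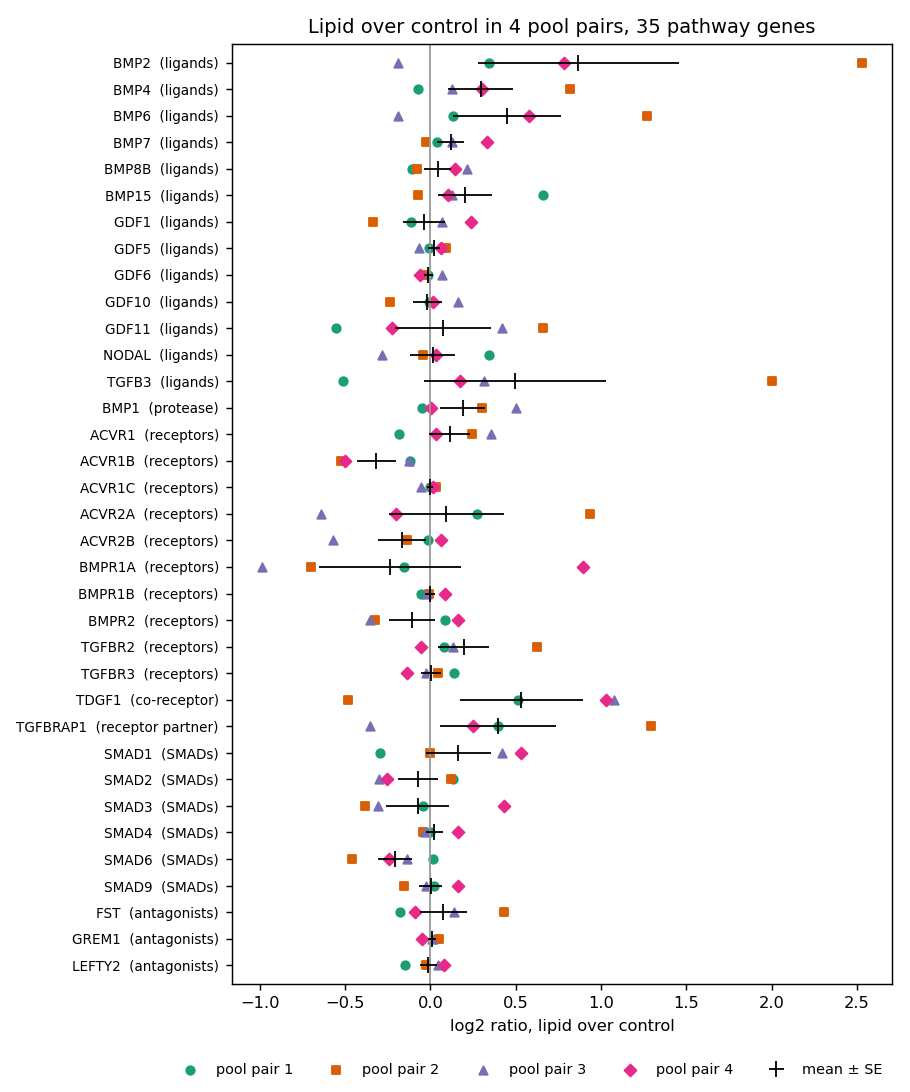
Log2 ratio of lipid over control (x axis) in each of the 4 pool pairs for the 35 kept pathway genes, with the mean and SE over the 4 pool pairs in black. BMP2, TGFB3, TGFBRAP1 and BMP6 had their highest values in pool pair 2, and the 4 values of ACVR1B lay below 0.

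The BMP ligands with signal had positive mean ratios, and for BMP2, BMP4 and BMP6 these rested mostly on pool pair 2. BMP2, a ligand that signals through SMAD1, had log2 ratios of 0.34, 2.53, -0.19 and 0.79 in pool pairs 1 to 4. Its mean was 0.87 ± 0.59 (SE, n = 4 pool pairs), or 1.82 times control (limma adjusted p = 0.996). In pool pair 2 BMP2 thus stood at 5.78 times its control pool, while pool pairs 1 and 4 were above 0 and pool pair 3 below. The control pools themselves differed: their normalised log2 intensities of BMP2 were 9.46, 10.97, 11.49 and 10.65, against 9.80, 13.50, 11.29 and 11.44 in the lipid pools. The groups overlapped, and without pool pair 2 the mean ratio was 0.31 ± 0.28 (SE, n = 3).

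BMP6, a close relative of BMP7, had 0.13, 1.27, -0.19 and 0.58, with a mean of 0.45 ± 0.32 (n = 4) and 0.17 ± 0.22 without pool pair 2. BMP4 had -0.07, 0.82, 0.13 and 0.30, with a mean of 0.29 ± 0.19 and 0.12 ± 0.11 without pool pair 2. All 3 were highest in pool pair 2. BMP7 differed from them there, with 0.04, -0.03, 0.13 and 0.33 and a mean of 0.12 ± 0.08. The oocyte ligand BMP15 had 0.66, -0.07, 0.13 and 0.10, so that pool pair 1 gave most of its mean of 0.20 ± 0.16. BMP8B, which passed on 1 control array, had -0.11, -0.08, 0.21 and 0.15 (mean 0.04 ± 0.08). Of the 6 kept BMP ligands, 6 had means above 0 and 0 were called.

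TGFB3 had log2 ratios of -0.51, 2.00, 0.31 and 0.17, with a mean of 0.49 ± 0.53 (n = 4, limma adjusted p = 1.00). Without pool pair 2 the mean was -0.01 ± 0.26. In pool pair 2 TGFB3 thus stood at 4.01 times its control pool, while pool pair 1 went the other way. The control signal of pool pair 2 was below the limit, at 260 against 294 units on slide 87 and 170 against 248 on slide 88. The value of 4.01 is therefore a ratio over background. NODAL, the ligand of the epiblast, had 0.35, -0.04, -0.28 and 0.03, with a mean of 0.01 ± 0.13 and no side in common. GDF11, known for axial patterning, had -0.55, 0.66, 0.42 and -0.23 (mean 0.07 ± 0.28). GDF1, which in the mouse forms dimers with nodal, had -0.12, -0.34, 0.07 and 0.24 (mean -0.04 ± 0.12). GDF5, GDF6 and GDF10 had means of 0.02, -0.01 and -0.02, and their pool pair values stayed between -0.24 and 0.16.

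Some markers of follicle cells and some of primitive endoderm, a lineage of the blastocyst itself, were also high in pool pair 2. In pool pair 2, 4 of the 35 pathway genes were at least 2-fold higher with lipid (BMP2, TGFB3, TGFBRAP1 and BMP6), against 2.16% of all kept genes. TGFB3 passed on 4 arrays, the minimum for being kept, and on both arrays of pool pair 2 only its lipid channel passed. It was thus kept through the same high values that are counted here. The second probe of TGFBRAP1 was not higher in pool pair 2. In pool pairs 3 and 4 it was 1 gene each, TDGF1 (0.377% and 0.471% of all kept genes), and in pool pair 1 none (0.351%). No pathway gene was at least 2-fold lower in any pool pair, against 0.274%, 0.394%, 0.42% and 0.874% of all kept genes in pool pairs 1 to 4. For cumulus and granulosa markers, genes of the follicle cells around the oocyte, the 14 kept genes had a median log2 ratio of 0.85 in pool pair 2, with 12 above 0 and 5 at least 2-fold higher. In pool pairs 1, 3 and 4 that median was -0.02, -0.03 and 0.17. The summed intensity of all 17 markers on the array was 8487 to 17057 units in the control pools and 8958 to 12749 in the lipid pools of pool pairs 1, 3 and 4, but 42447 with lipid in pool pair 2. The 5 markers at least 2-fold higher there were LUM (lumican, 3.70), VIM (vimentin, 2.96), INHBA (1.5), STAR (1.34) and COL1A2 (1.12). In the same pool pair FSHR had 0.02, COL1A1 0.10, INHA 0.22, HAS2 -0.18 and CYP19A1 (aromatase) -0.24. AMH passed the limit on 0 control arrays and 1 lipid array, and FOXL2 and TNFAIP6 passed in neither channel on any array. The part of single markers such as LUM and VIM in the summed intensity was not tested. The 6 primitive endoderm markers had medians of -0.10, 0.38, 0.06 and 0.00164 in pool pairs 1 to 4, with 3 of 6 above 0 in pool pair 2. There GATA4 had 1.37, LAMA1 1.08 and PDGFRA 0.77, while HNF4A had -0.72, COL4A1 -0.29 and SOX17 -0.01. LAMA1 had 1.08 in pool pair 4 as well. The summed intensity of the primitive endoderm markers in pool pair 2 was 32421 units in the control and 36210 in the lipid pool. The 10 trophectoderm markers had a median of -0.01 in pool pair 2, from -1.05 for KRT18 to 0.94 for IFNT, the interferon of the bovine trophoblast. The part of any of these cell types in the BMP2, BMP6, BMP4 and TGFB3 ratios was not tested.

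**Figure D3:**
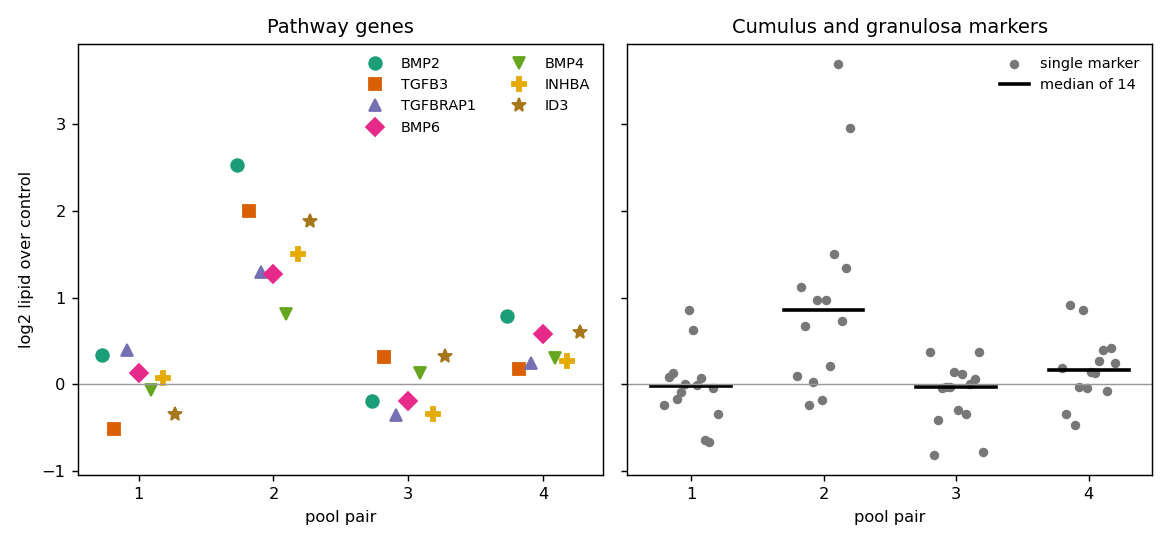
Log2 ratio of lipid over control (y axis) by pool pair for 5 pathway genes with INHBA and ID3 (left), and for the 14 kept cumulus and granulosa markers, INHBA among them, with their median (right). BMP2 at 2.53, TGFB3 at 2.00 and ID3 at 1.89 were highest in pool pair 2, where the marker median was 0.85.

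Both arrays of pool pair 2 gave the same picture for these ligands. BMP2 had 2.52 on slide 87 and 2.55 on slide 88, although the dyes were exchanged. TGFB3 had 2.11 and 1.89, BMP6 1.08 and 1.46, and BMP4 1.04 and 0.59. For the BMP6 value of 1.46 on slide 88 the control signal was below the limit, at 233 against 248 units. Agreement was not general: in pool pair 3, BMP2 had 0.29 on slide 87 and -0.67 on slide 88. Over the 35 kept pathway genes, the 2 arrays of a pool pair shared a sign for 14, 20, 17 and 16 genes in pool pairs 1 to 4, where 58.6%, 63.7%, 52.6% and 53.6% of all kept genes did. For some genes the sign followed the dye. SMAD6 had -0.65, -1.03, -0.80 and -0.94 on the 4 arrays with the lipid pool in Cy5 and 0.69, 0.11, 0.52 and 0.45 on those with it in Cy3. GDF1 likewise averaged -0.54 with lipid in Cy5 and 0.47 with lipid in Cy3. The mean of a pool pair holds each dye orientation once, so a dye effect that both slides share cancels in it. One that differs between the slides does not cancel, and shifts pool pairs 1 and 2 against pool pairs 3 and 4. ACVR2A and SMAD2 were above 0 in pool pairs 1 and 2 and below 0 in 3 and 4, and SMAD1 was the reverse. The part of a slide-specific dye effect in these values was not tested.

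**Figure D4:**
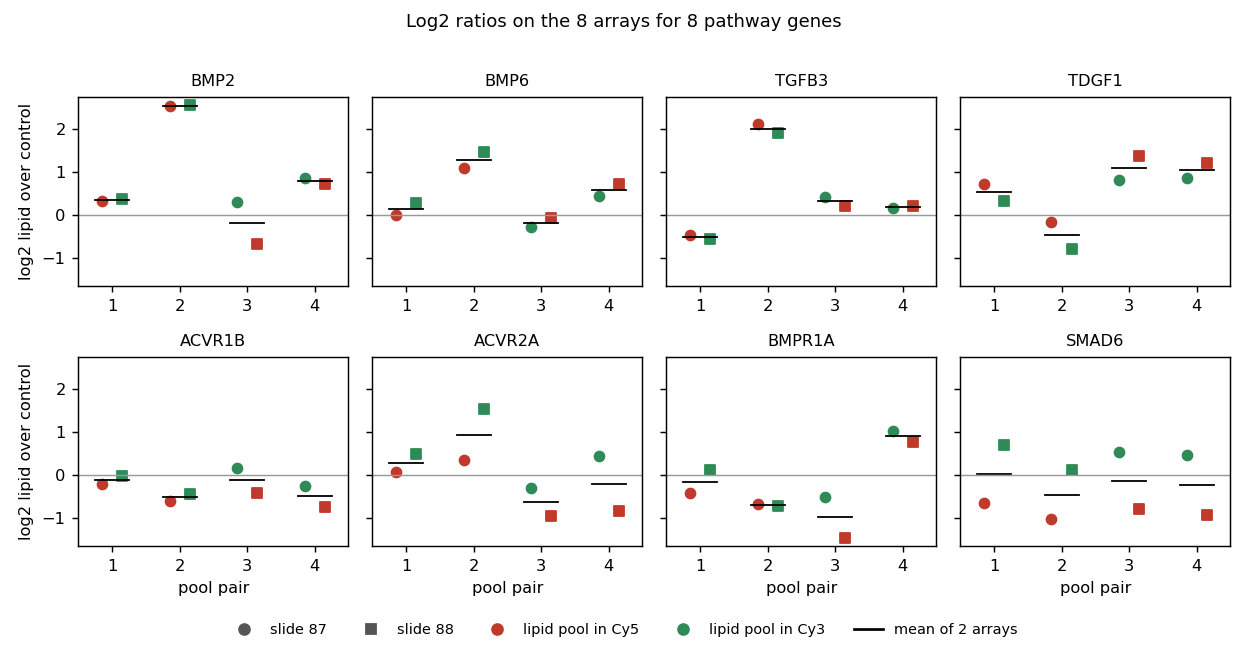
Log2 ratio of lipid over control (y axis) on each of the 8 arrays for 8 pathway genes, by pool pair; circles are slide 87, squares slide 88, the colour gives the dye of the lipid pool and the bar is the mean of the 2 arrays. BMP2 and TGFB3 lay near 2 or above on both arrays of pool pair 2, while SMAD6 changed sign with the dye in all 4 pool pairs.

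Among the receptors, ACVR1B had the smallest p. This type I receptor for activin and nodal had log2 ratios of -0.12, -0.52, -0.13 and -0.50 in pool pairs 1 to 4. The mean was -0.32 ± 0.11 (n = 4), or 0.803 times control, with an unadjusted p of 0.0267 in limma and an adjusted p of 0.996. All 4 pool pairs and 7 of the 8 arrays were below 0, with 0.16 on array 3 of slide 87, and the slides averaged -0.23 and -0.41. Over 17 alternative settings its limma adjusted p was between 0.182 and 1.00, so it was not called under any.

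The other activin and BMP receptors had no common side. ACVR1 had -0.18, 0.24, 0.36 and 0.03 (mean 0.11 ± 0.12), and ACVR2B had -0.02, -0.14, -0.57 and 0.06 (mean -0.16 ± 0.14). BMPR2, the type II receptor for BMPs, had 0.08, -0.33, -0.35 and 0.16 (mean -0.11 ± 0.13). TGFBR2 had 0.08, 0.62, 0.13 and -0.05 (mean 0.19 ± 0.15), again highest in pool pair 2. BMPR1A was the most uneven receptor among the kept genes, with -0.16, -0.70, -0.99 and 0.89 and a mean of -0.24 ± 0.41. ACVR2A, a type II receptor, had 0.28, 0.94, -0.64 and -0.20 (mean 0.09 ± 0.34). ACVR1C, BMPR1B and TGFBR3 had means of -0.00378, -0.00062 and 0.00633, and all their pool pair values lay between -0.13 and 0.14. Of the 10 kept receptors, 4 had means above 0 and 6 below.

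Probes of the same receptor did not always tell the same story. Of the 7 pathway genes with more than 1 kept probe, 4 had means of both signs. The second probe of BMPR1A had 0.54, 0.19, 0.11 and 0.23 in the pool pairs, with a mean of 0.27 ± 0.09 (unadjusted p = 0.033 in limma, adjusted p = 0.996). It passed on 7 control arrays, as against 8 for the brightest probe with its mean of -0.24, and the third probe had -0.11 ± 0.06. The second probe of ACVR2A was also above 0 in all 4 pool pairs, at 0.20, 0.77, 0.18 and 0.16 (mean 0.33 ± 0.15), but passed on 3 control arrays. The second BMPR2 probe had 0.08 ± 0.05, the opposite sign of the brightest. Which part of a transcript each probe matches was not analysed here, so no isoform is named.

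**Figure D5:**
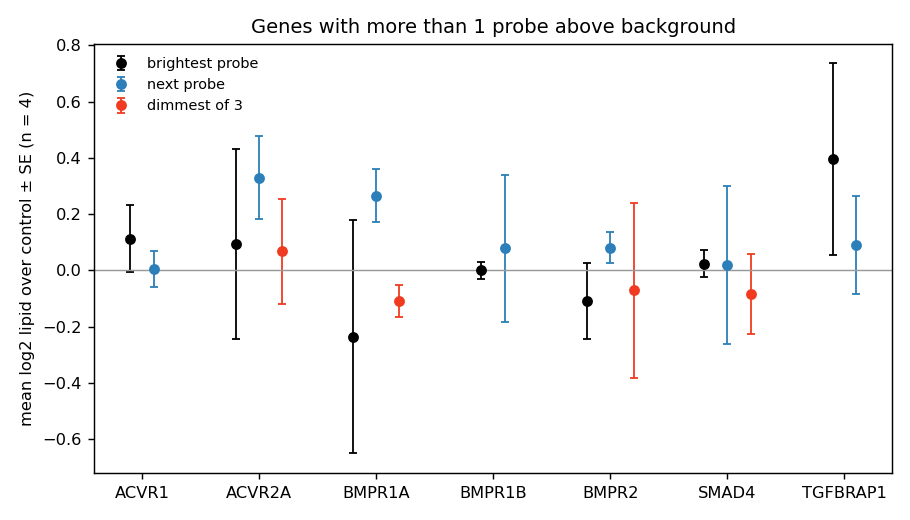
Mean log2 ratio of lipid over control with SE over 4 pool pairs (y axis) for each kept probe of the 7 pathway genes with more than 1, in order of brightness. The 3 probes of BMPR1A stood at -0.24, 0.27 and -0.11, while the SE bars of all SMAD4 probes crossed 0.

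The SMAD genes were close to 0 on average. SMAD1, the BMP-regulated SMAD with the brightest probe, had -0.29, -0.00031, 0.42 and 0.53 (mean 0.16 ± 0.19). SMAD2 and SMAD3, which carry TGF-beta, activin and nodal signals, had means of -0.07 ± 0.12 and -0.07 ± 0.18. SMAD2 was above 0 in pool pairs 1 and 2 (0.13 and 0.12) and below in pool pairs 3 and 4 (-0.30 and -0.25). SMAD3 had -0.04, -0.38, -0.30 and 0.43. The common partner SMAD4 had 6.06e-05, -0.04, -0.03 and 0.16, with a mean of 0.02 ± 0.05, the narrowest of the 4. The inhibitory SMAD6, which BMP signals induce in many cells, had 0.02, -0.46, -0.14 and -0.24 (mean -0.21 ± 0.10, limma adjusted p = 0.996). With array 1 of slide 87 left out, the SMAD6 mean was -0.04 (SE 0.20). Pool pair 1 then rested on array 1 of slide 88 alone, at 0.69 with lipid in Cy3, so the dye orientations were no longer balanced in it. SMAD9 had a mean of 0.00142 ± 0.07. Of the 6 kept SMADs, 3 had means above 0 and 3 below, and 0 were called.

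TDGF1, the nodal co-receptor of the epiblast, behaved unlike the ligands of pool pair 2. Its log2 ratios were 0.52, -0.48, 1.07 and 1.03, so that it stood higher with lipid in pool pairs 1, 3 and 4 and lower in pool pair 2. The mean was 0.53 ± 0.36 (n = 4, limma adjusted p = 0.996), and 0.87 ± 0.18 without pool pair 2 (n = 3). It was 0.54, 0.35 and 0.37 without pool pair 1, 3 and 4 in turn. Each of those 3 pool pairs was above 0 on both arrays, from 0.32 to 1.35. In the control channel TDGF1 passed on 4 arrays and its normalised log2 intensities were 8.36, 7.91, 7.03 and 7.39, against 8.87, 7.43, 8.10 and 8.42 in lipid. The control signal of pool pair 3 was below the limit, at 178 against 189 units on slide 87 and 180 against 227 on slide 88. It was also below the limit on slide 87 in pool pair 1 (411 against 958) and on slide 88 in pool pair 4 (238 against 243). Each pool pair with a ratio above 0 thus held a control signal below the limit. In pool pair 2, where TDGF1 was lower with lipid, the control passed on both arrays. The groups overlapped, and the dimmer TDGF1 probe passed on no control array. The 6 inner cell mass markers had medians of -0.25, 0.00246, 0.14 and 0.05 in the same pool pairs. Among them NANOG had 0.49, -0.53, 0.42 and 0.18, whereas KLF4 had -0.30, 0.23, 0.45 and -0.04 and DPPA3 had -0.20, 0.20, -0.31 and 0.39. POU5F1 was below 0 in all 4 pool pairs, and SOX2 and SALL4 were within 0.01 of 0 in pool pair 2.

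The antagonists and accessory proteins did not differ beyond the spread between pool pairs. FST, the trap of activin, had -0.18, 0.43, 0.14 and -0.09 (mean 0.07 ± 0.14). GREM1, a BMP trap, had values from -0.05 to 0.05 (mean 0.01 ± 0.02), and LEFTY2, which blocks nodal, values from -0.15 to 0.08 (mean -0.01 ± 0.05). All 3 were near their background limits, where the offset in the background correction shrinks ratios. BMP1 is a protease that processes procollagen and cleaves the BMP trap chordin, and had -0.05, 0.30, 0.50 and 0.0029 (mean 0.19 ± 0.13). TGFBRAP1, which binds the TGF-beta receptor, had 0.40, 1.29, -0.35 and 0.25 (mean 0.40 ± 0.34). Its second probe had 0.09 ± 0.17 and was not higher in pool pair 2, at -0.19.

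Further genes of the pathway were examined in 5 lists, without the genes above. Of 91 symbols 79 were on the array and 56 were kept, with 28 means above 0, 28 below, a median of 0.01 and 0 called (0% of all kept genes). At an unadjusted p under 0.05 in limma stood 3 of the 56, against 5.38% of all kept genes. In the list of SMAD partners, corepressors and ubiquitin ligases, 13 of 18 kept genes had means below 0, with a median of -0.05. TOB1, which dampens BMP signalling, had -0.86, -0.11, -0.45 and -0.59 (mean -0.50 ± 0.15), and STUB1, a ubiquitin ligase, had -0.37 ± 0.16. WWP1, another ubiquitin ligase, had -0.19 ± 0.07 and the corepressor SKIL 0.22 ± 0.09. TOB1, STUB1 and WWP1 were below 0 and SKIL above 0 in all 4 pool pairs, and none passed the test (limma adjusted p of at least 0.996).

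Extracellular regulators had 10 of 14 kept genes above 0 and a median of 0.09. LTBP1 and LTBP3, which store latent TGF-beta in the matrix, had 0.38 ± 0.17 and 0.16 ± 0.03, and NBL1 and KCP had -0.16 ± 0.09 and -0.10 ± 0.03. In pool pair 2, 4 of these 14 were at least 2-fold higher, against 2.16% of all kept genes, and none was in the other pool pairs. They were THBS1 (2.49), which activates latent TGF-beta, DCN (1.83), a matrix proteoglycan, FSTL3 (1.32), an activin trap, and TWSG1 (1.13), a BMP regulator. DCN passed on 1 control and 4 lipid arrays, so its control signal was mostly below the limit. Of the activin and inhibin subunits 3 were kept, and INHBA, the subunit of activin A, had 0.07, 1.5, -0.34 and 0.27 (mean 0.38 ± 0.40). INHA had 0.12 ± 0.05 and INHBB 0.03 ± 0.09. Co-receptors and receptor partners had 5 of 8 above 0 and a median of 0.05, with STRAP at 0.20 ± 0.13. Transcripts that these pathways are known to induce had 5 of 13 above 0 and a median of -0.01. ID3, a target of BMP signalling, had -0.34, 1.89, 0.33 and 0.60 (mean 0.62 ± 0.47). ID2 had 0.36, 0.40, -0.17 and 0.25 (mean 0.21 ± 0.13). GSC, a target of nodal signalling, had 0.48, -0.42, -0.41 and -0.47 (mean -0.20 ± 0.23), and TSC22D1 had 0.07, 1.39, -0.01 and -0.11. In pool pair 2 these 13 transcripts had a median of 0.13, with 9 above 0 and 4 below. There 2 of them, ID3 and TSC22D1, were at least 2-fold higher, against 2.16% of all kept genes. MSX1 and MSX2 had -0.08 and -0.16 in that pool pair, and ID1 was not kept. INHBA, ID3 and TSC22D1, like THBS1, DCN, FSTL3 and TWSG1, thus had their highest values in pool pair 2. There the cumulus and granulosa markers, INHBA itself among them, had a median of 0.85. The primitive endoderm markers had one of 0.38, with 3 of 6 above 0. The part of such cells in the ratios of these pathway genes was not tested.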

How the data were processed

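Amplified RNA of 4 lipid and 4 control pools was measured on 8 two-colour arrays. Per the file headers, the deposited scanner files hold raw mean foreground and median background intensity in the Cy3 and Cy5 channels, without normalization. A second deposited file holds the authors' processed values, taken here as log2 ratios, although no source used here states their log base or steps. The submitters' processing notes name limma. Against the scanner values each of its columns ran as lipid over control (correlation 0.950 to 0.980, medians -0.03 to 0.02), and it served as an alternative.

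Intensities were corrected with normexp (offset 50) and normalized by loess within arrays, with control spots at weight 0, in limma 3.58.1 under R 4.3.3. Ratios were turned to lipid over control. Levels were additionally quantile-normalized between arrays on average intensity. The labels do not say which arrays share pools. Arrays of the same number on both slides were paired because their deviations from the dye orientation means were correlated by 0.61 to 0.77, against -0.32 to -0.03 for other arrays of opposite dye. Subtracting these means itself draws the correlations with other arrays below 0. Without that subtraction, the ratios of the 2 arrays correlated by only 0.13, 0.38, 0.06 and 0.12 in pool pairs 1 to 4. Each pair was averaged, and the 4 means were tested with lmFit and eBayes (two-sided) over 28844 kept probes. The number of arrays limits the precision. Saturated spots were kept.

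Genes were named through the annotation table of the platform, where 1 symbol stands for 21790 probes, several for 0 and none for 22004. Of the 49 symbols, 48 are current in RefSeq's table for ARS-UCD2.0 and 1 is a synonym. Values by pool pair are given for the 24 kept genes of smallest p, the 6 of highest control intensity and 28 fixed symbols, of which 27 were analysed (35 genes in all, 28 kept). Up to 4 genes of smallest p are named per further list. The genes and lists were chosen with earlier results of these data known. Genes named for pool pair 2, for dye or for disagreeing probes, the single marker genes, and THBS1, DCN, FSTL3, TWSG1, MSX1, MSX2 and ID1, were chosen after their values were seen.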

Additional observations from a re-analysis of the deposited data

Results flagged for a closer look

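The median of the 35 kept pathway genes was 0.0800 in pool pair 4, against -0.02 to -0.01 in the other 3, which set pool pair 4 far from the rest by the gap between it and the nearest pool pair. Of the 36 sets of pool pair values examined (35 genes and their median) this was the 1 set in which a pool pair stood apart, and chance singles out about 1 set in 20.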

How the results depend on the processing

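No pathway gene was called under any of the 17 alternatives, and their median stayed between 0.01 and 0.06 in all but one: with array 1 of slide 87 left out, chosen after seeing the data, it was 0.0725. Leaving out each pool pair in turn gave 0 called probes each time and medians of 0.01 to 0.03. Fitted with no replicate block, so that all 8 arrays counted separately, limma called 7 probes, and 66 with a dye term per slide, 0 of them for the pathway genes through their brightest probes. Genes of one sign in all 4 pool pairs numbered 1, and 2 without background correction, with median centring, with array 1 of slide 87 left out and with the mean of all kept probes, and 3 with no filter on dim probes. Genes at least 2-fold higher in pool pair 2 numbered 4, and 1 when signal above the limit was required on all 8 arrays, which left 12 genes. That requirement left 6 genes detected in control blastocysts in place of 26. Of 459 single values of the 28 named kept genes, 24 changed sign, in 13 genes. The signs of BMP2, BMP4, BMP6, TDGF1, ACVR1B and SMAD6 held in all of them. SMAD6 was -0.04 with array 1 of slide 87 left out, where pool pair 1 held a single dye orientation. TGFB3 had -0.01 without pool pair 2. Signals near the background limit, as for the antagonists and TGFB3 in control pools, limit what can be seen.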
